A study of Rattus norvegicus with 50 samples.

Results

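Lungs of implanted control rats taken at day 21 (Air_D21T, n = 4) were compared with lungs of control rats taken at day 9 (Air_D9, n = 5). These 9 of the 50 lung arrays of the study were chosen by the group named in each sample's title, and the brightest probe set of each gene named here entered the comparison where its signal varied enough over the arrays. The question was whether the implanted controls resembled the earlier controls more than the day 21 controls without an implant (Air_D21, n = 6) did. All were male Sprague-Dawley rats, 9 weeks old at purchase, that breathed HEPA-filtered air, the control for printer-emitted particles (PEPs), for 5 hours a day in whole-body chambers with 1 animal each. The Air_D21T rats also carried a radio telemetry system. PEP_D21T (n = 4) and PEP_D9 (n = 5) are the particle-exposed groups of the same design. Exposures took place in different calendar years. Which year, array plate or litter a given lung belongs to is not in the labels, so the implant and such differences cannot be told apart. Nor do the labels say whether arrays of 1 group came from different animals, and the p-values cover only the spread among the arrays, which may be technical.

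The lung is rich in fibroblasts that lay down collagen and elastin as the organ grows, and it holds resident macrophages, natural killer (NK) cells and lymphocytes. Immediate early genes such as Nr4a1 and Egr1 switch on within minutes of a stimulus without new protein synthesis. Clock genes such as Bmal1 and Dbp cycle over the day in most tissues, the lung included.

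Values are log2 signals of the array, so a difference of 1 is a doubling. The fit covered 8202 genes, and those with an adjusted p under 0.05 are said to be called. The fit estimated the spread of each gene over all 10 groups together. An SE or p therefore does not measure the spread of the compared lungs alone. One sample label speaks of blood while the others name lung. On all 50 arrays the surfactant genes Sftpc and Sftpb lay between 13.04 and 13.21 and between 12.34 and 12.70, the club cell gene Scgb1a1 between 12.18 and 12.82 and the type 1 cell gene Ager between 11.90 and 12.49, so the arrays were taken as lung. In whole tissue, fewer cells of a type and less RNA per cell cannot be told apart.

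Over the 8202 genes tested, implanted day 21 lungs were not measurably nearer to day 9 lungs than day 21 lungs without an implant were. For each lung, the distance was the root mean square log2 difference over the 8202 genes to each Air_D9 lung, averaged over those lungs. The Air_D21T lungs lay at 0.494, 0.492, 0.585 and 0.575 (replicates 1 to 4), a mean of 0.537 ± 0.050 (SD, n = 4), against 0.529 ± 0.019 (SD, n = 6) in the Air_D21 lungs, whose range was 0.504 to 0.551. Replicates 1 and 2 of Air_D21T were nearer to day 9 than every Air_D21 lung, and replicates 3 and 4 were farther than every one. The difference of 0.0073 was not past the test (two-sided exact permutation test, p = 0.752), and its 95% interval ran from -0.054 to 0.064. The smallest p this design allows in a single direction is 0.00476, and the two-sided p counts both directions. Air_D9 lungs lay 0.442 apart from each other on average, Air_D21T lungs 0.497 and Air_D21 lungs 0.509. Both day 21 groups lay nearer to day 9 lungs (0.537 in Air_D21T and 0.529 in Air_D21) than to each other (0.570), which was not tested. Distances to Air_D5 lungs (0.537 in Air_D21T, 0.519 in Air_D21, exact permutation p = 0.2) and to Air_D1 lungs (0.578 in Air_D21T, 0.592 in Air_D21, exact permutation p = 0.924) did not pass either, with p = 0.6 at the lowest after adjustment over the 3.

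**Figure D1:**
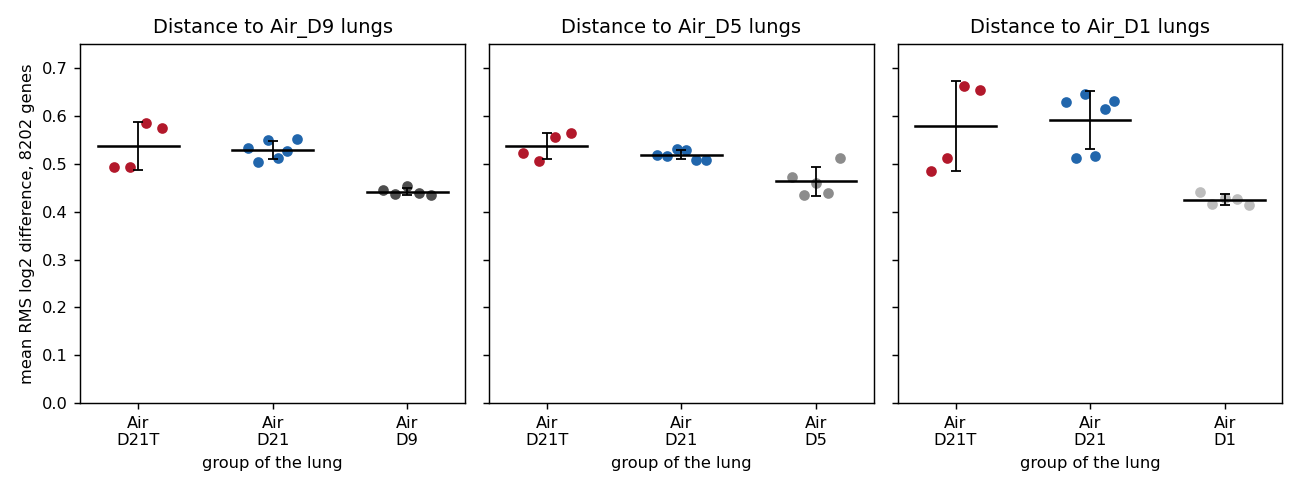
Distance of each lung (root mean square log2 difference over 8202 genes, averaged over the lungs named in the panel title) for Air_D21T, Air_D21 and, for scale, the named lungs among themselves; points are lungs, lines are means and bars are SD. The Air_D21T lungs span 0.492 to 0.585 against day 9 and cover the whole Air_D21 range.

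Gene by gene, the day 21 groups gave different counts of called genes. Between Air_D21T and Air_D9, 122 genes rose (1.49% of those tested) and 217 fell (2.65%), and 263 genes were at least 1.5-fold higher and 245 at least 1.5-fold lower whatever their p. With each array centred on its median, 77 rose and 242 fell. Between Air_D21 and Air_D9, 178 genes rose (2.17%) and 644 fell (7.85%), and 250 were at least 1.5-fold higher and 307 at least 1.5-fold lower whatever their p. The median absolute log2 difference from day 9 was 0.192 in Air_D21T and 0.186 in Air_D21. Called counts depend on group size (4 and 6 lungs), so they do not rank the groups by size of difference. Directly between the day 21 groups, 391 genes were higher in Air_D21T than in Air_D21 (4.77%) and 176 were lower (2.15%). These 3 comparisons share lungs, so their values are set side by side below. The count of 339 against day 9 was 191 without Air_D21T replicate 3 and 167 without Air_D21T replicate 4, and the count of 567 between the day 21 groups was 357 without Air_D21T replicate 2. The count of genes at 1.5-fold in Air_D21T against day 9 was 770 without Air_D21T replicate 1.

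The largest rises against day 9 were those of Vsig4, Cd300lg, Klrc3, Fam111a, Ly49si1 and Klri2. Some of these genes read below the array medians in Air_D9 lungs, and no measure of background was used here. The size of a difference that starts from such a level, or for genes that fell ends at it, is uncertain. Vsig4, a complement receptor of resident macrophages, read 8.82, 6.22, 8.54 and 8.78 in the Air_D21T lungs, against 4.96, 4.92, 4.33, 4.75 and 4.79 in Air_D9 lungs. All 4 implanted lungs lay above all day 9 lungs, with replicate 2 well below the other 3. The difference was 3.29 ± 0.47 (SE; 9.79-fold, adjusted p = 8.69e-06), while Air_D21 lungs ranged from 4.25 to 5.88 and differed from day 9 by 0.15 ± 0.43 (adjusted p = 0.898). Cd300lg, a receptor of capillary endothelium, read 5.98, 6.18, 5.97 and 6.76 in Air_D21T lungs, against 3.06, 3.10, 3.36, 3.38 and 3.67 in Air_D9 lungs, a difference of 2.96 ± 0.52 (adjusted p = 0.000211). Its Air_D21 lungs, at 3.12 to 3.65, lay within the day 9 range, and Air_D21T exceeded them by 2.87 ± 0.53 (adjusted p = 0.0004).

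NK cells read the health of their neighbours through lectin-like receptors, and Klrc1, Klrc3 and Klrd1 encode chains of the CD94/NKG2 receptors. Klrc3 read 6.27, 6.03, 6.18 and 5.73 in Air_D21T lungs, against 2.77, 3.47, 3.42, 3.22 and 2.97 in Air_D9 lungs. Klrc1 read 7.08, 6.91, 6.88 and 6.70 in Air_D21T lungs, against 5.11, 5.93, 5.39, 5.37 and 4.98 in Air_D9 lungs. Neither gene overlapped between the groups, and the 4 implanted lungs were tightly spaced. Klrc3 rose by 2.85 ± 0.58 (adjusted p = 0.0014) and Klrd1 by 1.13 ± 0.23 (adjusted p = 0.00128), and Klrc1 was 2.83-fold higher in Air_D21T (adjusted p = 0.000323). Klri2, a killer cell lectin-like receptor, had the smallest p of all genes, with 4.23, 5.10, 4.45 and 4.23 in Air_D21T lungs, against 2.45, 2.17, 2.44, 1.92 and 2.48 in Air_D9 lungs, and rose by 2.24 ± 0.24 (adjusted p = 1.39e-08). In the RefSeq gene order, Klrd1, Klrc3, Klrc1, Klri2 and the related Ly49si1 stand on chromosome 4 between 240 and 255 genes after Klrg1, and such related genes can share probe sequence, so single members are uncertain.

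Not all NK genes moved. Of the 18 tested genes of NK cells and cytotoxic granules, 2 (Klrc1 and Klrd1) rose and none fell against day 9, with a median of 0.18 beside -0.06 over all genes. The share of all genes that rose was 1.49%. Klrk1, which stands between Klrd1 and Klrc3 and was picked after its value was seen, differed by 0.02 ± 0.17 (adjusted p = 0.965), and the granule protease gene Gzma, picked likewise, by -0.07 (adjusted p = 0.91). Ly49si1 rose by 2.58 ± 0.76 (adjusted p = 0.0382), but 1 Air_D9 lung at 4.76 came close to the lowest Air_D21T lung at 4.80, and the call was lost on leaving out any of 7 of the 9 lungs, with an adjusted p of up to 0.106.

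Of 15 tested macrophage genes, 4 rose and none fell, with a median of -0.02, where 1.49% of all genes rose. Beside Vsig4 these were Trem2, a lipid-sensing receptor, by 1.27 ± 0.23 (adjusted p = 0.000299), Timd4, a receptor for dying cells on resident macrophages, by 0.93 ± 0.23 (adjusted p = 0.0107), and Fabp4, a fatty acid carrier, by 1.57 ± 0.33 (adjusted p = 0.00231). The scavenger receptor Marco, picked after its value was seen, was not called (-0.41, adjusted p = 0.61). The summed macrophage level ranged from 13.97 to 14.07 in Air_D21T, against 13.81 to 13.98 in Air_D9. Fabp4 is also an adipocyte gene, as is Cfd, which rose by 0.90 ± 0.23 (adjusted p = 0.0141). The 21 adipocyte genes summed to 11.39 to 11.91 in Air_D21T lungs, against 11.45 to 11.74 in Air_D9 lungs, and their part in these values was not tested. Cfd was not called without Air_D21T replicate 1 or 2 or without Air_D9 replicate 1 or 2, with an adjusted p of up to 0.142.

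Other large rises were found in genes of varied roles. Fam111a, a protease that guards DNA replication, read 8.01, 7.69, 7.38 and 8.41 in Air_D21T lungs, against 5.52, 5.51, 5.32, 4.64 and 4.92 in Air_D9 lungs, and rose by 2.74 ± 0.43 (adjusted p = 5.74e-05). Luzp2 rose by 1.91 ± 0.29 (adjusted p = 2.47e-05) and Baat, which couples bile acids to amino acids, by 1.77 ± 0.35 (adjusted p = 0.00108), both without overlap. Itln1, a lectin that binds microbial sugars, spread widely, at 3.21, 4.48, 5.85 and 5.50 in Air_D21T lungs, against 2.82 to 3.25 in Air_D9 lungs. Replicate 1 of Air_D21T lay within the day 9 range for Itln1, and the difference was 1.78 ± 0.25 (adjusted p = 8.69e-06). That SE and p rest on the spread pooled over all groups and do not reflect how widely the implanted lungs spread for Itln1. Depp1, a stress-regulated gene of autophagy, rose by 1.57 ± 0.34 (adjusted p = 0.00331), and Serpinb6b, a serine protease inhibitor, by 1.27 ± 0.22 (adjusted p = 0.00014). Retnla, a secreted protein of type 2 inflammation, rose by 2.06 ± 0.54 (adjusted p = 0.0181), though the groups overlapped, and its call was lost without Air_D21T replicate 3, Air_D21T replicate 4 or Air_D9 replicate 1 (adjusted p of up to 0.0975). All of these but Depp1 were also higher in Air_D21T than in Air_D21, with adjusted p between 8.25e-06 for Fam111a and 0.0344 for Retnla.

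**Figure D2:**
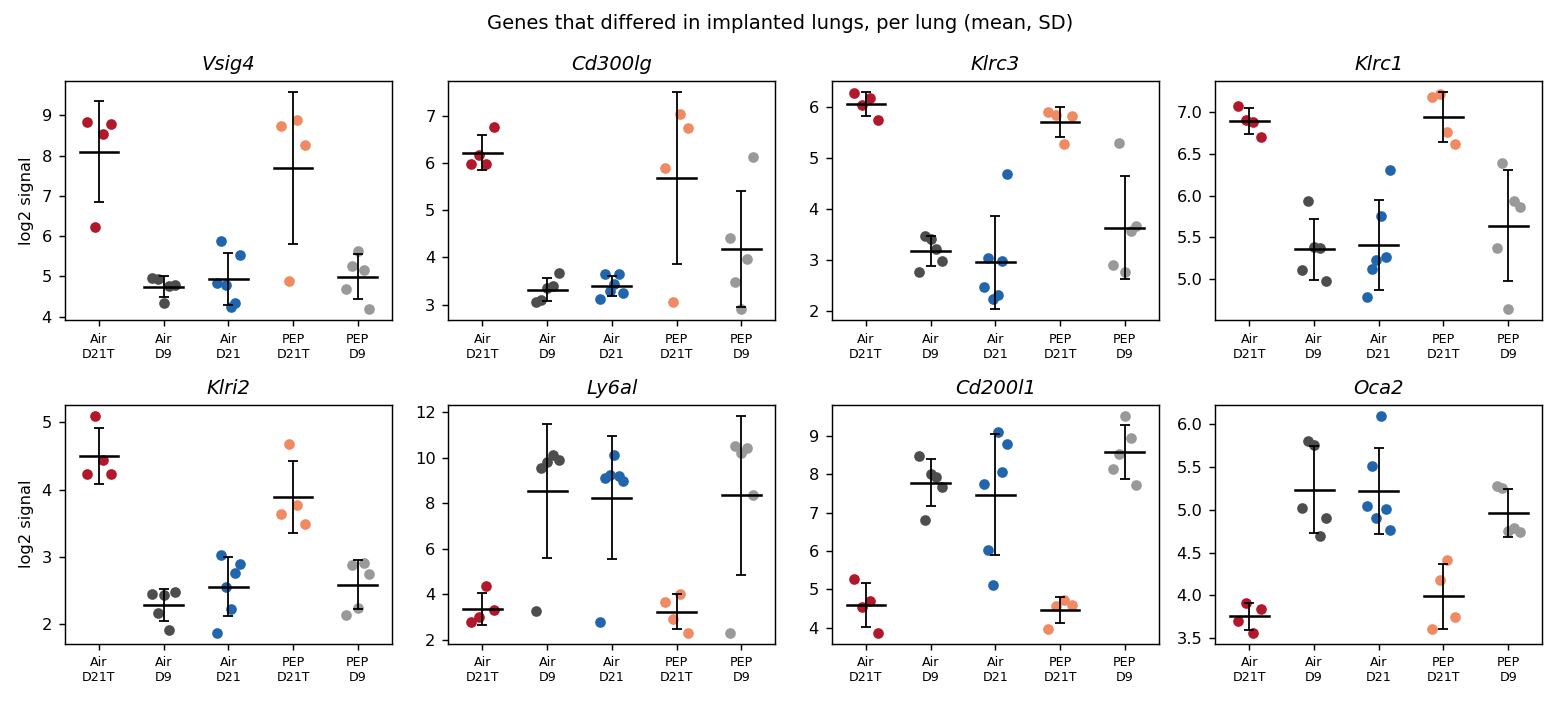
Log2 signal of 8 genes in each Air_D21T, Air_D9, Air_D21, PEP_D21T and PEP_D9 lung; points are lungs, lines are means and bars are SD. Vsig4, Cd300lg and the NK receptor genes are high in Air_D21T lungs and Ly6al, Cd200l1 and Oca2 are low, while Air_D21 lungs mostly lie with Air_D9 lungs.

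Among genes that fell, a few were low in every implanted lung while most or all other control lungs were high. Ly6al, of the family of small surface proteins that includes Ly6a, read 2.79, 3.03, 4.36 and 3.30 in Air_D21T lungs, against 3.27, 9.56, 9.80, 10.13 and 9.91 in Air_D9 lungs. Air_D9 replicate 1 was as low as the implanted lungs, and so was 1 of the 6 Air_D21 lungs, at 2.81, with the others at 8.98 to 10.12. Ly6al fell by 5.23 ± 1.11 on the log2 scale (adjusted p = 0.00238). Cd200l1, a relative of the immune inhibitory ligand Cd200, read 5.27, 4.55, 4.69 and 3.87 in Air_D21T lungs, against 8.48, 6.80, 7.99, 7.93 and 7.67 in Air_D9 lungs. It did not overlap and fell by 3.20 ± 0.85 (adjusted p = 0.0201), but was not called without Air_D21T replicate 3 or replicate 4 (adjusted p of up to 0.0916). Oca2, a transporter of pigment granules, fell by 1.46 ± 0.24 (adjusted p = 7.87e-05), and Fcrl2, an Fc receptor-like protein of lymphocytes, by 1.36 ± 0.32 (adjusted p = 0.0068). In Air_D21 lungs these 4 genes differed from day 9 by -0.47, -0.28, -0.07 and -0.20 in the order given here, none called, and Air_D21T was below Air_D21 in all 4 (adjusted p = 0.00562 for Ly6al, 0.0282 for Cd200l1, 0.000197 for Oca2 and 0.0197 for Fcrl2). Cldn1, a tight junction protein, fell by 1.18 ± 0.20 (adjusted p = 0.000133) and was also below Air_D21 by 0.78 (adjusted p = 0.011).

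The particle-exposed rats hold a second set of implanted lungs, which share no array with the Air groups; this comparison was added after the data had been seen. These PEP groups differ in day as well as in implant, as the Air groups do, so the 2 cannot be told apart in shared changes. PEP_D21T minus PEP_D9 gave 144 genes higher (1.76%) and 145 lower (1.77%). Of the 339 genes called in Air, 121 were called in the same direction in PEP, which is 35.7% of the Air calls and 41.9% of the 289 PEP calls, and 327 had the same sign (96.5%, beside 67.9% of all genes tested). The difference between the Air and PEP contrasts was called in 0 genes by limma (403 at an unadjusted p below 0.05, with 410 expected; smallest adjusted p = 0.936). Vsig4 read 8.74, 4.88, 8.88 and 8.27 in PEP_D21T lungs, against 4.19 to 5.63 in PEP_D9 lungs, so that 1 implanted lung lay within the PEP_D9 range. The gene rose by 2.46 ± 0.48 (adjusted p = 0.00114). Klri2 rose by 1.39 ± 0.24 in PEP (adjusted p = 0.000248) and Ly6al fell by 4.95 ± 1.14 (adjusted p = 0.00596), with 1 PEP_D9 lung at 2.32. Fam111a read 4.92, 4.71, 7.91 and 4.64 in PEP_D21T lungs, against 4.80 to 5.25 in PEP_D9 lungs, a difference of 0.49 ± 0.44 that was not called (adjusted p = 0.647), and 1 of these 4 lungs was high.

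**Figure D3:**
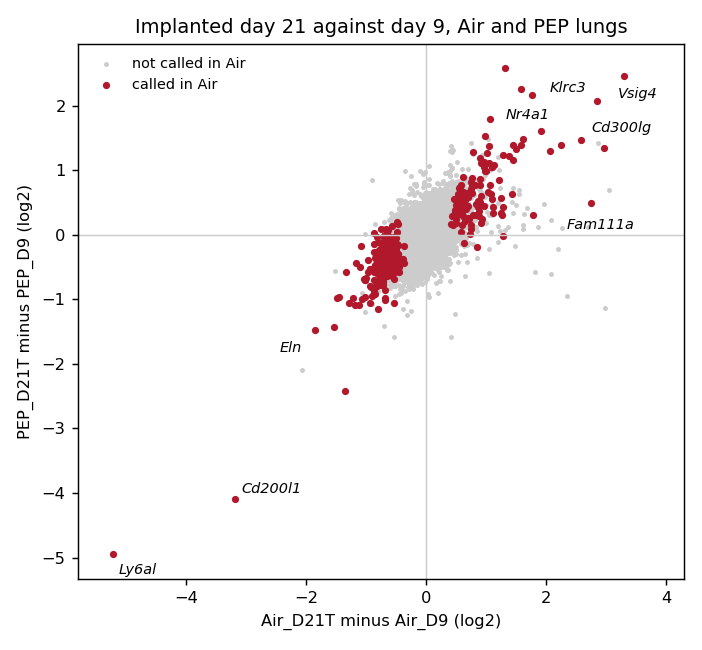
Log2 difference of each of the 8202 genes between implanted day 21 and day 9 lungs in the Air groups (horizontal) and in the PEP groups (vertical); genes called in Air are red. Of the 339 red genes, 327 have the same sign on both axes, and Ly6al and Cd200l1 lie furthest down.

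Some immediate early genes were higher in implanted lungs. Of 18 tested members, 4 rose and none fell against day 9, with a median of 0.50, while in Air_D21 none was called against day 9 and the median was -0.10. The share of all genes that rose in Air_D21T was 1.49%. Nr4a1, an orphan nuclear receptor, read 8.82, 9.71, 9.89 and 9.37 in Air_D21T lungs, against 8.91, 7.71, 7.20, 7.57 and 7.71 in Air_D9 lungs. Egr1, a zinc finger activator, read 9.08, 9.44, 9.19 and 9.25 in Air_D21T lungs, against 8.71, 7.89, 7.43, 7.58 and 7.76 in Air_D9 lungs. Air_D9 replicate 1 was the highest day 9 lung for both genes, and it overlapped the implanted lungs for Nr4a1 only. Nr4a1 rose by 1.61 ± 0.32 (adjusted p = 0.00108), Egr1 by 1.37 ± 0.34 (adjusted p = 0.012), Ccn1, a matricellular protein, by 1.01 ± 0.23 (adjusted p = 0.00599) and Ier3, a survival gene, by 0.60 ± 0.15 (adjusted p = 0.0141). Ier3 was not called without Air_D21T replicate 3 or replicate 4, with an adjusted p of up to 0.145. Directly against Air_D21, 7 of the 18 were higher in Air_D21T and none lower, where 4.77% of all genes were higher. In PEP_D21T minus PEP_D9 10 of the 18 rose, where 1.76% of all genes did.

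The promoters of 3 of the 4 genes that rose are shown. RefSeq windows of 250 bases before the start (build GRCr8) were at hand for 13 of the 18 tested members. The motif TGACG, the core of the cAMP response element, was found on either strand for 10 of these 13 genes, and in 18.2% of all 33469 promoter windows. The CArG box bound by serum response factor was found for 3 of the 13 genes and in 1.5% of all windows. CCAAT (3 of 13, 34.0% of all) and TATAAA (4 of 13, 12.9% of all) were also counted. Of 14 collagen and matrix genes, 2 held TGACG and 0 the CArG box. List members were counted by gene and the background by window, so these shares differ in unit. Capitals mark TGACG or its complement in Nr4a1 (chr7:134259888-134260137, + strand, 4 matches) and Ccn1 (chr2:237225690-237225939, - strand, 1 match), and the CArG boxes in Egr1 (chr18:26736828-26737077, + strand, 2 matches). The Egr1 window also holds the complement of TGACG, left there in small letters. A match is a run of letters and not a measured site.
Nr4a1: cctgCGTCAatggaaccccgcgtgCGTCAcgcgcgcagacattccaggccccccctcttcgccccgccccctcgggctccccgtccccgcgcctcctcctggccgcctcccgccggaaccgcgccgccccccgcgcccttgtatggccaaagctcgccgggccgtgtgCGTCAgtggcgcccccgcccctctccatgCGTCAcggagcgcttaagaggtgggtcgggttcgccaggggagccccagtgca
Egr1: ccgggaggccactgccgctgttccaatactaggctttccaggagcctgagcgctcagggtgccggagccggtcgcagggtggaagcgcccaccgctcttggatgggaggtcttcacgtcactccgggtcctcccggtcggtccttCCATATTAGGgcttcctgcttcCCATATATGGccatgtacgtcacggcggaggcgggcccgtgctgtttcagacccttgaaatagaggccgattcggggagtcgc
Ccn1: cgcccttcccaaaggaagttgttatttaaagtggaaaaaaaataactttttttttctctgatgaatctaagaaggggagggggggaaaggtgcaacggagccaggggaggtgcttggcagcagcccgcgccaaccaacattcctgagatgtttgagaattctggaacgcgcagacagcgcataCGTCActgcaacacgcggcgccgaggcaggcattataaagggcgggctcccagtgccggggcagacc

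Of 15 glucocorticoid-induced genes, 3 rose and none fell, with a median of 0.34. These were Errfi1, a feedback inhibitor of growth factor receptors (0.54 ± 0.16, adjusted p = 0.0367), Nfkbia, an inhibitor of NF-kB (0.60 ± 0.17, adjusted p = 0.0335), and Lcn2, an iron-binding protein of epithelium and neutrophils (0.97 ± 0.28, adjusted p = 0.0336). Fkbp5 (-0.16, adjusted p = 0.84) and Zbtb16 (-0.91, adjusted p = 0.32), well-known members picked after their values were seen, were not called. None of the 3 was called with arrays centred on their medians, and each of the 3 calls was lost on leaving out at least 4 of the 9 lungs, with an adjusted p of up to 0.112, 0.125 and 0.115 in the order given. In PEP_D21T minus PEP_D9, 6 of the 15 rose and none fell, with a median of 0.81, where 1.76% of all genes rose. Of 25 cytokine and chemokine genes, 2 rose, Ccl3 by 1.04 ± 0.21 (adjusted p = 0.00128) and Cxcl1 by 0.69 ± 0.20 (adjusted p = 0.0386). Of 14 complement genes, C3 rose by 0.97 ± 0.23 (adjusted p = 0.00782) and Cfd as given above. The medians of these lists were 0.25 and -0.02, beside -0.06 over all genes, of which 1.49% rose. Cxcl1 was not called without any 1 of 6 of the 9 lungs, with an adjusted p of up to 0.136.

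Matrix genes were lower than at day 9 in both day 21 groups. Of 26 collagen and matrix genes, 15 fell and none rose in Air_D21T against day 9 (median -0.56), and 18 fell and none rose in Air_D21 against day 9 (median -0.46). Of 10 elastic fibre genes, 7 fell in Air_D21T (median -0.83) and 8 fell in Air_D21 (median -0.59). Over all genes the medians were -0.06 and -0.01, and 2.65% fell in Air_D21T and 7.85% in Air_D21. Lox, Loxl1 and Fbln5 stand in both lists and fell in Air_D21T, so the list counts overlap. Eln, which encodes elastin, read 9.09, 8.69, 8.21 and 7.64 in Air_D21T lungs, against 10.51, 10.25, 10.37, 9.83 and 10.30 in Air_D9 lungs. Air_D21 lungs lay between 8.27 and 9.41, also below every day 9 lung. Eln fell by 1.85 ± 0.24 in Air_D21T (3.61-fold lower, adjusted p = 1.67e-06) and by 1.34 ± 0.22 in Air_D21 (adjusted p = 0.000131), and the day 21 groups were not called apart (-0.51, adjusted p = 0.205).

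Of the collagens, 3 were lower still in implanted lungs than in day 21 lungs without an implant. Col1a1, a chain of type I collagen, read 8.79, 9.12, 8.62 and 8.41 in Air_D21T lungs, against 10.38, 10.13, 10.29, 10.20 and 10.39 in Air_D9 lungs, with Air_D21 lungs at 9.24 to 9.83. Col3a1, the chain of type III collagen, read 10.50, 10.61, 9.98 and 10.48 in Air_D21T lungs, against 11.65, 11.59, 11.57, 11.45 and 11.47 in Air_D9 lungs, with Air_D21 lungs at 10.86 to 11.28. For both genes the 3 groups did not overlap, with Air_D21T lowest and Air_D9 highest. Col1a1 fell by 1.53 ± 0.17 (adjusted p = 1.6e-08), Col3a1 by 1.13 ± 0.12 (adjusted p = 1.6e-08) and Col1a2 by 0.95 ± 0.15 (adjusted p = 7.87e-05). Air_D21T was below Air_D21 by 0.80 for Col1a1 (adjusted p = 0.00245), by 0.67 for Col3a1 (adjusted p = 0.000493) and by 0.57 for Col1a2 (adjusted p = 0.018). These were the 3 members of the collagen and matrix list called lower in that comparison, where 2.15% of all genes were lower.

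No other collagen or matrix gene was called between the day 21 groups, and of the elastic fibre genes Efemp1, picked for its call, was higher in Air_D21T (0.50, adjusted p = 0.0307). These counts moved with single lungs: 5 matrix genes were lower without Air_D21T replicate 1 or 2, while 4 were higher and 2 lower without Air_D21T replicate 3, and 1 was higher without Air_D21T replicate 4 or Air_D21 replicate 1. No elastic fibre gene was higher without Air_D21T replicate 1 or 2 or Air_D21 replicate 1, 5 or 6, or with arrays centred, and 1 was lower without Air_D21T replicate 1 or Air_D21 replicate 6 and 2 without Air_D21T replicate 2. Loxl1, which cross-links elastin, fell by 0.92 ± 0.16 in Air_D21T (adjusted p = 0.000133) and by 1.04 ± 0.14 in Air_D21 (adjusted p = 5.49e-06), and Lox, its relative, by 1.00 ± 0.18 and 0.91 ± 0.17 in that order (adjusted p = 0.000282 and 0.000342). Fbn1, the backbone of microfibrils, fell by 1.02 ± 0.13 in Air_D21T (adjusted p = 6.82e-07), and the latent TGF-beta binding gene Ltbp2 by 0.87 ± 0.15, Fbln5 by 0.79 ± 0.14 and the microfibril gene Mfap2 by 0.73 ± 0.18. The gelatinase gene Mmp2 fell by 0.80 ± 0.11 (adjusted p = 8.69e-06), Loxl2 by 0.72 ± 0.17 and Sparc by 0.45, and the other called collagens were Col15a1 (-0.90), Col4a1 (-0.68), Col4a2 (-0.66), Col6a1 (-0.62), Col5a2 (-0.59) and Col6a2 (-0.54). Mfap2 was not called without Air_D21T replicate 3 or replicate 4 (adjusted p of up to 0.161). Without any 1 of the 9 lungs, 15 to 16 collagen and matrix genes and 6 to 8 elastic fibre genes fell. Of 15 fibroblast markers, 1 fell (Cd34, by 0.49 ± 0.14, adjusted p = 0.0251, lost without Air_D21T replicate 3 or 4 with an adjusted p of up to 0.157), where 2.65% of all genes fell. The summed fibroblast level ranged from 13.36 to 13.79 in Air_D21T lungs, against 13.70 to 13.83 in Air_D9 lungs. In PEP_D21T minus PEP_D9, 13 of the 26 collagen and matrix genes fell, and 5 of the 10 elastic fibre genes fell and 1 rose. There 1.77% of all genes fell and 1.76% rose, and Col1a1 fell by 1.43 ± 0.17 (adjusted p = 2.44e-07).

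**Figure D4:**
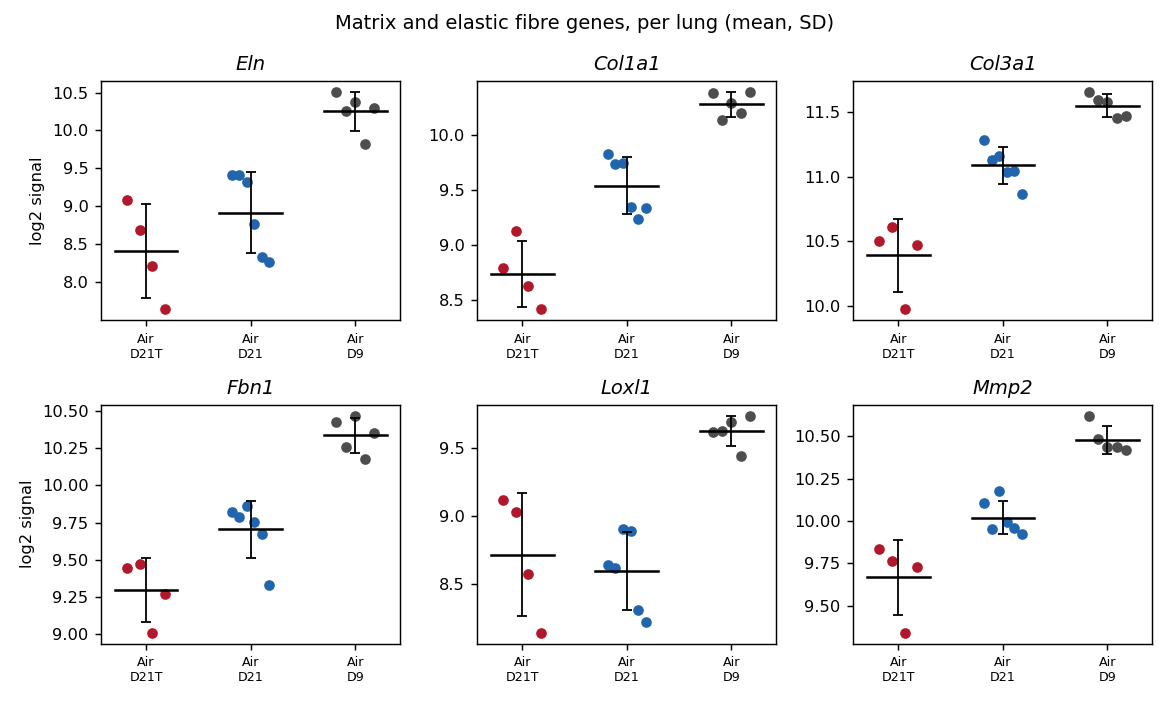
Log2 signal of 6 matrix and elastic fibre genes in each Air_D21T, Air_D21 and Air_D9 lung; points are lungs, lines are means and bars are SD. Every Air_D21T and Air_D21 lung lies below every Air_D9 lung in these 6 genes.

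Other genes that fell in both day 21 groups were Alox15, a lipoxygenase (-1.49 ± 0.26 in Air_D21T, adjusted p = 0.000198; -1.07 in Air_D21, adjusted p = 0.00268), Tspan18, a tetraspanin (-1.28 ± 0.24, adjusted p = 0.000431; -1.10, adjusted p = 0.000803) and Slc4a1, the anion exchanger of red cells (-1.22 ± 0.23, adjusted p = 0.00072; -1.43, adjusted p = 4.03e-05). Spmap2l fell in Air_D21T (-1.19 ± 0.25, adjusted p = 0.00231) and was not called in Air_D21 (-0.55, adjusted p = 0.134), and the day 21 groups were not called apart (adjusted p = 0.112). The globin gene Hba-a3 fell by 1.35 ± 0.24 (adjusted p = 0.000235). Of 12 erythroid genes, 2 fell against day 9, Slc4a1 and Hba-a1 (-0.47), the second lost on leaving out any of 7 lungs (adjusted p of up to 0.266). The summed erythroid level ranged from 10.31 to 10.68 in Air_D21T lungs, against 10.73 to 11.03 in Air_D9 lungs and 10.33 to 10.73 in Air_D21 lungs, and how much blood each lung held was not tested. Of 19 endothelial genes 1 fell, the sialomucin Emcn (-0.72 ± 0.13, adjusted p = 0.000203), also below Air_D21 (adjusted p = 0.00897). Among all genes tested, 2.65% fell in Air_D21T against day 9, so counts of 1 or 2 genes say little about a cell type.

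Of 21 proliferation genes, 4 fell and none rose in Air_D21T (median -0.40) and none was called in Air_D21 (median -0.21). Among all genes tested, 2.65% fell in Air_D21T, 7.85% fell in Air_D21 and 2.15% were lower in Air_D21T than in Air_D21. Cdk1, the mitotic kinase, fell by 0.73 ± 0.18 (adjusted p = 0.0103), the checkpoint kinase Bub1 by 0.73 ± 0.18 (adjusted p = 0.0101), the cyclin Ccna2 by 0.52 (adjusted p = 0.0294) and the kinesin Kif23 by 0.46 (adjusted p = 0.0276), the last pair lost on leaving out any of 5 and of 4 lungs (adjusted p of up to 0.111 and 0.175). None of the 4 was called with only Air_D21T and Air_D9 in the fit. The count was 1 without Air_D21T replicate 3, 0 without replicate 4 and 2 without Air_D9 replicate 2, and 1 member (Bub1) was called between the day 21 groups.

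Most T cell genes were higher in implanted lungs than in day 21 lungs without an implant, and few differed from day 9. Of 21 T cell genes, 1 rose and none fell in Air_D21T against day 9 (median 0.05), while 14 fell in Air_D21 against day 9 (median -0.63), and 15 were higher in Air_D21T than in Air_D21. Among all genes tested, 1.49% rose in Air_D21T and 7.85% fell in Air_D21 against day 9. Between the day 21 groups, 4.77% of all genes were higher in Air_D21T. Was, the actin regulator of blood cells, had the lowest p between the day 21 groups. It read 8.03, 8.09, 8.27 and 8.10 in Air_D21T lungs, against 8.16, 8.03, 8.04, 8.07 and 8.29 in Air_D9 lungs and 6.78 to 7.25 in Air_D21 lungs. Air_D21T and Air_D9 covered the same range (difference 0.01 ± 0.13, adjusted p = 0.99), and every Air_D21 lung was lower (1.12 ± 0.13 between the day 21 groups, adjusted p = 5.99e-07). Cd4 and Cd8a, the coreceptors of helper and cytotoxic T cells, picked after their values were seen, differed from day 9 by 0.01 ± 0.21 and 0.00 ± 0.18 in Air_D21T and by -1.13 ± 0.19 and -1.04 ± 0.17 in Air_D21 (adjusted p = 0.000155 and 6.92e-05). Zap70, a kinase of the T cell receptor, was the T cell gene that rose against day 9 (0.57 ± 0.17, adjusted p = 0.0388), and its call was lost on leaving out any of 7 lungs, with an adjusted p of up to 0.0852.

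Of 16 B and plasma cell genes, none rose and 1 (Fcrl2, above) fell in Air_D21T, 7 fell in Air_D21, and 10 were higher and 1 lower in Air_D21T than in Air_D21. For these lists, the shares over all genes were 2.65% lower in Air_D21T and 7.85% lower in Air_D21 against day 9. Between the day 21 groups, 4.77% of all genes were higher and 2.15% lower in Air_D21T. That count of 10 was 6 without Air_D21T replicate 3, and against day 9 2 genes rose without Air_D21T replicate 1 and 3 without replicate 2. Of the 18 NK genes, 5 fell in Air_D21 against day 9 and 7 were higher in Air_D21T than in Air_D21. The 5 became 1 without Air_D9 replicate 2 or Air_D21 replicate 1, and between 2 and 3 without any of the others except Air_D9 replicate 4. The 7 became 11 without Air_D21T replicate 3 or replicate 4. It became 5 without Air_D21T replicate 1 or 2 or Air_D21 replicate 1, or with arrays centred. Summed T cell levels were 11.16 to 11.55 in Air_D21T lungs, against 11.16 to 11.47 in Air_D9 lungs and 10.31 to 10.67 in Air_D21 lungs. The smallest p between the day 21 groups, after Was, Klri2 and Fam111a and beside Serpinb6b, were those of the septin Septin1, 0.99 higher in Air_D21T (adjusted p = 1.65e-05), and Tmem150b, 1.19 higher (adjusted p = 1.65e-05), which also rose against day 9 (0.59 ± 0.17, adjusted p = 0.0338; up to 0.178 without Air_D21T replicate 3, Air_D21T replicate 4, Air_D9 replicate 4 or Air_D9 replicate 5). Of 16 neutrophil genes, 1 rose in Air_D21T and 5 fell in Air_D21, where 1.49% and 7.85% of all genes did so. The gene that rose was the resistin-like gene Retnlg (0.82, lost without any of 5 lungs, adjusted p of up to 0.162). Of 8 genes of MHC class II presentation, none was called in Air_D21T, where RT1-DOa (0.44), RT1-Bb (0.84) and RT1-DOb (-0.33) had the smallest p, and 2 fell in Air_D21.

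**Figure D5:**
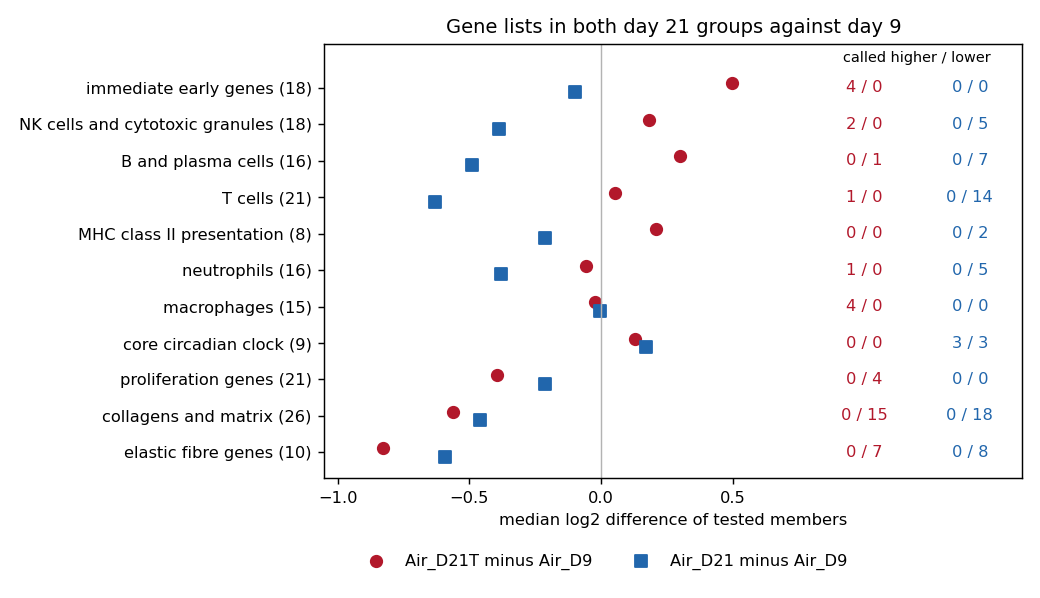
Median log2 difference of the tested members of 11 gene lists (number tested in brackets) in Air_D21T minus Air_D9 (circles) and Air_D21 minus Air_D9 (squares), with the count of members called higher and lower at the right. Lymphocyte lists are near 0 or above in Air_D21T and below 0 in Air_D21, while matrix lists are below 0 in both. Among all genes, 1.49% were called higher and 2.65% lower in Air_D21T, and 2.17% higher and 7.85% lower in Air_D21. The collagen and elastic fibre lists share Lox, Loxl1 and Fbln5.

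Clock genes did not separate implanted lungs from day 9, and the implanted lungs were widely spread. Of 9 core clock genes, none was called in Air_D21T against day 9, and 3 were higher and 3 lower in Air_D21 against day 9. Among all genes tested, 2.17% rose and 7.85% fell in Air_D21. The counts of 3 and 3 became 1 and 2 without Air_D9 replicate 2, and 2 and 2 without Air_D9 replicate 1 or 4 or Air_D21 replicate 5 or 6. Directly between the day 21 groups, 1 of the 9 was higher in Air_D21T (Bmal1, by 1.24, adjusted p = 0.0148) and none lower; none was called without Air_D21T replicate 1 or 2 or Air_D21 replicate 5, 2 were higher and 2 lower without Air_D21T replicate 3 or 4, 2 were higher without Air_D21 replicate 1, and 1 was lower without Air_D21 replicate 2. Bmal1, an activator of the clock, read 8.64, 7.72, 7.26 and 6.34 in Air_D21T lungs, against 7.99, 7.59, 7.56, 7.21 and 6.57 in Air_D9 lungs. Dbp, an output gene of the opposite phase, read 8.41, 10.03, 10.09 and 11.23 in Air_D21T lungs, against 9.25, 9.81, 10.11, 10.48 and 10.95 in Air_D9 lungs. Air_D21T replicate 1 had the highest Bmal1 and lowest Dbp of the 9 lungs and replicate 4 the lowest Bmal1 and highest Dbp. Bmal1 differed by 0.04 ± 0.33 (adjusted p = 0.973) and Dbp by -0.09 ± 0.36 (adjusted p = 0.935), and in Air_D21 lungs Bmal1 fell by 1.20 ± 0.30 (adjusted p = 0.00703) and the repressor Per2 rose by 1.09 ± 0.29 (adjusted p = 0.0106). In Air_D21T the repressors differed from day 9 by 0.34 (Per1), 0.27 (Per2), 0.13 (Per3) and 0.06 (Cry1). The labels give no hour of sampling, so its part in these values was not tested. None of 10 clock output genes was called in Air_D21T.

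Muscle genes varied widely between lungs. Of 32 cardiac and pulmonary vein muscle genes, 3 rose against day 9 and the median difference was 1.39, but the count was 23 without Air_D21T replicate 1, 8 without Air_D21T replicate 2, 6 without Air_D9 replicate 4, 1 without Air_D21T replicate 3 or Air_D9 replicate 2 and 0 without Air_D21T replicate 4, and 2 without Air_D9 replicate 1 or 5. The atrial peptide gene Nppa read 3.51, 3.17, 3.49 and 6.10 in Air_D21T lungs, against 2.59 to 3.19 in Air_D9 lungs, so that its difference of 1.27 ± 0.27 (adjusted p = 0.00273) rested on replicate 4 (adjusted p = 0.121 without it). Summed levels of the list were 11.22 to 14.005 in Air_D21T lungs, against 11.15 to 12.47 in Air_D9 lungs. Leaving the muscle, fat, liver and erythroid lists out together gave a distance difference of -0.0007 between the day 21 groups; the cardiac list alone was not tested. The other 2 cardiac list genes that rose were the glycolytic Pgam2 (1.11) and the potassium channel gene Kcnj3 (0.89). Kcnj3 was not called without Air_D21T replicate 3, Air_D21T replicate 4 or Air_D9 replicate 2 (adjusted p of up to 0.227). Nor was it called with only the groups compared in the fit. Of the remaining lists, the heat and cold list held 1 gene that rose (the cold-inducible Cirbp, 0.57) and 1 that fell (the chaperone Dnaja1, -0.57) of 13, mast cells and basophils 1 that rose (Ms4a2, 0.76) and 1 that fell (Mcpt4, -0.50) of 15, cholesterol synthesis 1 that fell (Sc5d, -0.42) of 8, and skeletal muscle 2 that rose of 15 (Pgam2, 1.11, and Eno3, 0.87). The call of each of these 7 was lost on leaving out any of at least 4 of the 9 lungs. Over all genes tested, 1.49% rose and 2.65% fell.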

How the data were processed

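Total RNA of 50 rat lung samples was measured on Affymetrix arrays, 1 per sample. The table the authors deposited holds log2 signals for 36685 probe sets, made, per the submitters' notes, by RMA in the oligo package of R 3.4; RMA makes array distributions alike, which removes a shift common to most genes and shrinks differences of dim genes. Array medians lay between 4.92 and 5.11. The number of arrays, not depth, limits the precision. The table held 0 columns of no sample. The platform annotation pairs 14824 of the probe sets with 1 gene and 829 with more, and 21032 were unnamed here; 14557 genes were named, 14670 probe sets matched a RefSeq record (GRCr8), and the brightest set stood for a gene. Genes with a variance of at least 0.05 were kept (8202), after the study's methods. A weighted linear model over all 10 groups was fitted with limma 3.58.1 in R 4.3.3 (array weights, empirical Bayes), with Benjamini-Hochberg adjustment over all genes; it was tested on simulated data. Distances were compared by exact permutation.

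The genes named were the 12 largest rises and 12 largest falls among genes called against day 9, for each list its called members or else up to 3 with the smallest p, the clock genes, and the 6 with the smallest p between the day 21 groups; exceptions are marked. Members and lists were chosen with earlier results of these data known. The PEP comparison and the leaving out of lungs for list counts were chosen after seeing the data. Same-numbered Air_D21T and Air_D9 lungs deviated together (correlations of 0.191, 0.114, 0.137 and 0.269 over genes), so a fit with the replicate number as a block was run beside the main one; no label states what the number marks.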

Additional observations from a re-analysis of the deposited data

Results flagged for a closer look

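In 186 sets of lungs (92 named genes and the distance to day 9, in Air_D21T and in Air_D9), 9 held 1 lung that stood far from the others relative to the range of its group, where chance gives about 1 in 20. In Air_D21T these were Vsig4 at 6.22 in replicate 2 (others 8.54 to 8.82), Loxl2 at 6.77 in replicate 2 (others 6.44 to 6.49), Rgs16 at 6.47 in replicate 4 (others 5.91 to 5.96), Nppa at 6.10 in replicate 4 (others 3.17 to 3.51) and Cd34 at 8.85 in replicate 3 (others 9.41 to 9.45). In Air_D9 they were Ly6al at 3.27 in replicate 1 (others 9.56 to 10.13), Fcrl2 at 4.81 in replicate 2 (others 5.51 to 5.71), Ccn1 at 9.27 in replicate 1 (others 8.34 to 8.54) and RT1-Bb at 8.02 in replicate 3 (others 6.37 to 6.75). No named gene differed between the Air and PEP contrasts past the test.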

How the results depend on the processing

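The counts called against day 9 in Air_D21T (339), in Air_D21 against day 9 (822) and between the day 21 groups (567) kept within 1.5 times under equal array weights, robust moderation, centred arrays, the 25 Air arrays alone and every probe set. Without a variance filter, Air_D21 against day 9 gave 1537 and the day 21 groups 951. With only the groups compared in the fit, Air_D21T against day 9 gave 127 and the day 21 groups 277. Centring gave 77 higher and 242 lower in Air_D21T against day 9, and 230 and 318 at 1.5-fold. Leaving out 1 lung gave 167 to 454 (Air_D21T against day 9), 455 to 770 (at 1.5-fold), 557 to 934 (Air_D21 against day 9), 357 to 608 (between day 21 groups) and -0.0089 to 0.0221 for the distance. The distance difference was -0.0122 by the mean absolute difference, -0.0008 by 1 minus r and -0.0007 without muscle, fat, liver and erythroid genes. With the replicate block, Air_D21T against day 9 gave 401 calls, and none of the 76 named calls was lost; 29 were lost with only the groups compared in the fit, 12 with the 25 Air arrays, 10 centred, 6 unfiltered, 2 with equal weights, 1 with robust moderation and 0 with every probe set. Of these 76, 48 were called without any 1 of the 9 lungs. Bmal1, uncalled, was -0.0205 unfiltered, -0.0225 centred and -0.0847 with the block (-0.4259 to 0.5531 leaving out lungs); Dbp was 0.0438 with the block (-0.6366 to 0.4691) and Was -0.0275 centred (-0.04 to 0.0453). Per2 (-0.2842 to 0.8144), Per3 (-0.2519 to 0.5007) and Cry1 (-0.0427 to 0.13) changed sign when a lung was left out. The number of lungs limits every count.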
